A study of Mus musculus with 12 samples.

Results

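Molecular chaperones of the cytosol and the mitochondria were followed as 43 genes, chosen by symbol: the HSP90, HSP70, HSP40 and HSP60 families, the 8 subunits of the TRiC chaperonin, the 6 subunits of prefoldin, their cochaperones, and the heat shock factors Hsf1 and Hsf2. All 43 were found in both deposited tables, of 23973 genes listed in the IL7 table and 24015 in the LPS table. Pfdn6 stands there under its older symbol H2-Ke2. Inside this list 10 genes were taken as MYC-linked folding subunits (Tcp1, Cct2, Cct3, Cct4, Cct5, Cct6a, Cct7, Cct8, Hspd1 and Hspe1) and 6 as heat-inducible members (Hsp90aa1, Hspa1a, Hspa1b, Hsph1, Dnajb1 and Bag3).

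RNA was sequenced from primary mouse B cells of 4 groups with 3 libraries each. Bone marrow B cells of wild-type mice (WT) and of littermates with T58A, a point mutation in the MYC protein, were cultured for 48 hours with IL7, the cytokine that sustains early B cells. Spleen B cells of both genotypes were cultured for 48 hours with LPS, a bacterial lipopolysaccharide to which mature B cells respond by dividing and secreting antibody. All cultures were in RPMI medium with fetal bovine serum. In each culture the titles sort the libraries into 3 numbered pairs, 1 library per genotype. A pair of T58A columns of the LPS table carry the same header, so their pair numbers could not be read, and the text names them the first T58A library and the second. The labels used here state neither the sex and age of the mice nor the number of mutant alleles, and do not tie a library to an animal, so the spread between libraries may be technical in part.

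Chaperones hold unfolded proteins in a soluble state and let them fold, mostly in cycles driven by ATP. HSP70, helped by J-proteins of the HSP40 family, binds new chains; HSP90 finishes kinases and steroid receptors; TRiC and the mitochondrial HSP60 enclose a chain in a chamber; prefoldin hands actin and tubulin to TRiC. Heat shock factor 1 binds repeats of the letters GAA and TTC and switches on the inducible members after heat or other damage to proteins. MYC binds the E-box CACGTG with its partner MAX, and growing cells with much MYC make more ribosomes and more of the machinery that folds their products.

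The promoters of a few members show how these letters lie in the genes compared below. RefSeq promoters (GRCm38.p6, 250 bases before to 50 after the start) matched 34 of the 43 members, with 45 promoters. Hspe1 and Hspd1, the mitochondrial lid and chamber, are read in opposite directions from one short stretch on chromosome 1. The first transcribed base of Hspe1 and that of a start of Hspd1 lie 216 apart. Hspe1 carries 4 alternating units, shown in capitals, in chr1:55088048-55088088 on the plus strand. The same stretch lies upstream of that start of Hspd1. A second Hspd1 promoter holds an E-box, in chr1:55088308-55088331 on the minus strand. Its start lies past that of Hspe1, so both genes overlap there. Hsph1, an HSP110 that recharges HSP70, has both kinds of letters in chr5:149636327-149636381 on the minus strand. Hspa1a and Hspa1b, the inducible HSP70 copies, have the same 41 bases in chr17:34972236-34972276 and chr17:34959318-34959358, both on the minus strand, and 296 of 300 promoter bases alike. Cct5, a TRiC subunit, has 1 pair of units in chr15:31601862-31601891 on the minus strand. Capitals mark the matched letters.
Hspe1: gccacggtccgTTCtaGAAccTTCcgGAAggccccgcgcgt
Hspd1: ggctgggaCACGTGaaaaggccgc
Hsph1: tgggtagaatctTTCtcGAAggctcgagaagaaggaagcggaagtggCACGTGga
Hspa1a and Hspa1b: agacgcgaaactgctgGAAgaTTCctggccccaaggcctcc
Cct5: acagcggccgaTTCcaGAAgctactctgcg

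Both strands were searched for 3 motifs, which can overlap each other. CACGTG was in 4 of the 45 promoters, those of Hspd1, Hsph1 and Hsf2, and in 7.15% of the 32851 promoters of the table. A pair of heat shock units (GAANNTTC or TTCNNGAA) was in 15 of the 45, or 33.3%, against 15.1% of all promoters. Bag3, Hspa1a, Hspa1b, Hsph1, Hspd1, Hspe1, Cct2, Cct5 and Cct6a were among these genes. A run of 3 units (GAANNTTCNNGAA or TTCNNGAANNTTC) was in 6 of the 45, of Hspd1, Hspe1, Hsph1 and Dnajb6, against 0.603% of all promoters. Promoters can overlap, so the same site can be counted in several of them. This holds for the E-box and the run of Hsph1, the run of Dnajb6 and the run shared by Hspd1 and Hspe1. A match is a description of these letters and does not show that a factor binds.

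Libraries held 8486753 to 10201113 reads assigned to genes in the IL7 table and 5110746 to 9332410 in the LPS table. Values below are normalised reads, the deposited counts divided by a size factor per library, and 3 reads came to 2.15 to 4.12 of them. Both tables were normalised separately, so levels are compared within a table only. The B cell markers Cd79a, Cd79b, Pax5, Ebf1 and Ms4a1 were present in each library. Early B cell markers such as Vpreb1 and Rag1 summed to between 15066 and 21821 in IL7 cultures and to between 14.7 and 58.8 in LPS cultures. Erythroid and stromal markers summed to at most 11.0 in any library. By Xist and Y-linked transcripts the WT libraries numbered 1 and 2 came from females in both cultures, and the other libraries from males. IL7 WT 2 also had a low level of Y-linked reads, with Eif2s3y at 58.9 against 645 to 904 in the male IL7 libraries. In pairs 1 and 2 sex and genotype cannot be told apart, and pair 3 alone compares 1 sex. Myc transcript was at 2010, 3204 and 3858 in IL7 WT and at 3038, 4397 and 4827 in IL7 T58A; read counts of the gene do not show which allele is expressed.

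Chaperone transcripts took 1.35%, 1.41% and 1.57% of the assigned reads in IL7 WT 1, 2 and 3. The T58A libraries gave 1.62%, 1.70% and 1.75%, each above every WT library. In LPS cultures the share was 0.825%, 0.862% and 0.894% in WT and 1.09%, 0.949% and 0.939% in T58A, also without overlap. In bulk RNA fewer cells of a type and less RNA per cell cannot be told apart. TRiC and HSP90 made up most of the chaperone share. TRiC took 0.432%, 0.467% and 0.512% in IL7 WT against 0.535%, 0.557% and 0.574% in IL7 T58A. Prefoldin overlapped between genotypes, at 0.0391% to 0.0453% in IL7 WT and 0.0391% to 0.0408% in IL7 T58A.

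**Figure D1:**
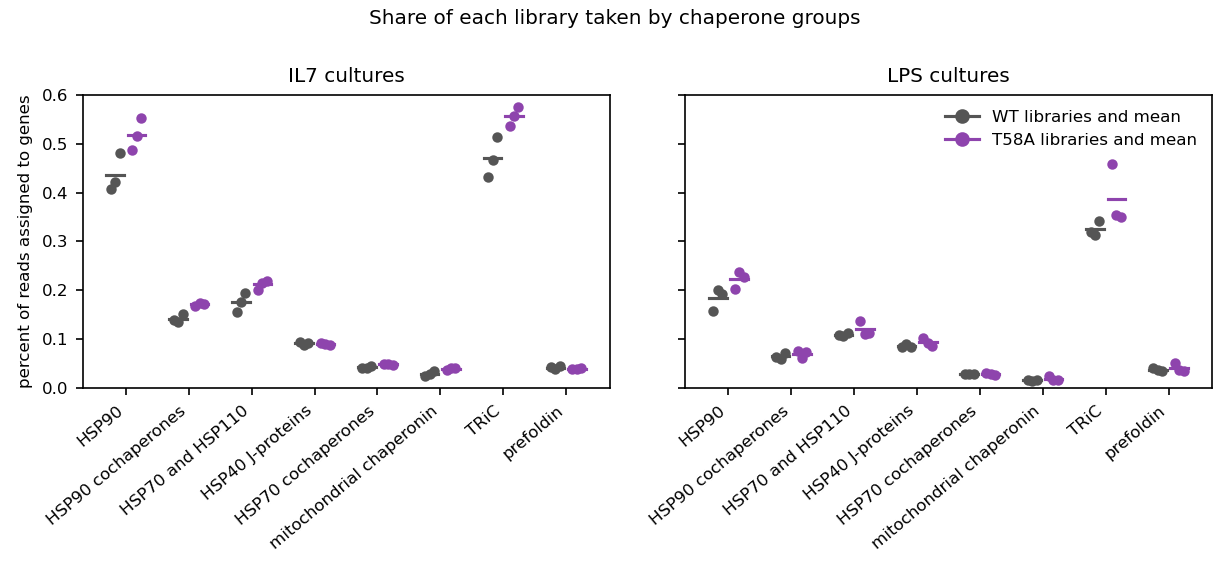
Percent of reads assigned to genes that fell on each chaperone group, by library (points) with the group mean (bars), in IL7 cultures (left) and LPS cultures (right). In IL7 cultures the T58A points of HSP90 and TRiC lie above all WT points, and those of HSP40 J-proteins and prefoldin overlap WT.

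Hsp90ab1, the constitutive cytosolic HSP90, was the gene with the most normalised reads of all genes in each IL7 library. Per kilobase of exon it stood at 12538 ± 1226 normalised reads (SD, n = 3) in IL7 WT, and its inducible sister Hsp90aa1 at 273 ± 37.9. Next in order came Cct5 at 2475 ± 130 and Cct2 at 2468 ± 172 per kilobase, which did not differ beyond their spread, then Cct8 at 1714 ± 216 and Cct6a at 1570 ± 316, which did not either. At the bottom were Bag3 at 5.07 ± 1.49, Hspa1b at 3.90 ± 2.12 and Hspa1a at 1.04 ± 1.10 per kilobase. Hsp90ab1 led in LPS WT cultures too, at 3812 ± 473 per kilobase, followed by Cct2 at 1446 ± 30.1 and Cct5 at 1305 ± 62.1. By this measure constitutive genes filled the top of the order in both cultures and the inducible HSP70 copies its end. The length used joins all annotated exons of a gene. Of the 50-base windows of Hspa1a, Hspa1b and Hsp90aa1, 66.3%, 62.3% and 47.5% also occur in other annotated genes. The levels of these inducible genes are therefore uncertain.

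In IL7 cultures 20 of the 41 members tested rose in T58A and 1 fell. The test was limma on log2(normalised reads + 1) with the pair as a block, adjusted by Benjamini-Hochberg over 11604 genes, with a threshold of 0.05. Of all genes tested 6.41% were called higher and 6.31% lower. The members' median log2 change was 0.20, against -0.01 over all genes tested. Hspa1a and Hspa1b had too few reads to be tested, and members that pass such a filter are not all members. Changes were small: those called higher ran from 0.22 for Tcp1 to 0.68 for Bag2 on the log2 scale, or 1.17 to 1.60 times. Every T58A library stood above every WT library for 20 of the 41, and for 12.9% of all genes tested.

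These calls rest on the pairing. Without the block limma called 0 of the 41 members and 0 of 11604 genes. In that fit 22 members, and 16.9% of all genes, had an unadjusted p under 0.05. edgeR without the block called 0 members and 0 genes as well. DESeq2 without the block called 4 members higher (Fkbp4, Hsph1, Bag2 and Cct4), and 1.47% of all genes. A fit with a term for sex beside the block, which leaves pair 3 to carry the effect, passed 0 members and 0.362% of all genes, with 6 members and 10.6% of all genes at an unadjusted p under 0.05. Leaving out pair 2 left 3 calls (Bag2, Hspd1 and Pfdn5) where 6.68% of all genes were called. Leaving out pair 3 left 7 (Trap1, Fkbp4, Hspa9, Hsph1, Bag2, Hspd1 and Cct6a) against 7.21%. In the authors' deposited table, 19 members had an adjusted p under 0.05 in IL7 cultures, all higher in T58A, where 4.67% of the genes with an adjusted p were called higher. All 19 were also called by limma with the block. In planning, the authors' p-values were taken to come from a paired fit of these same libraries. The overlap therefore does not test the pairing.

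**Figure D2:**
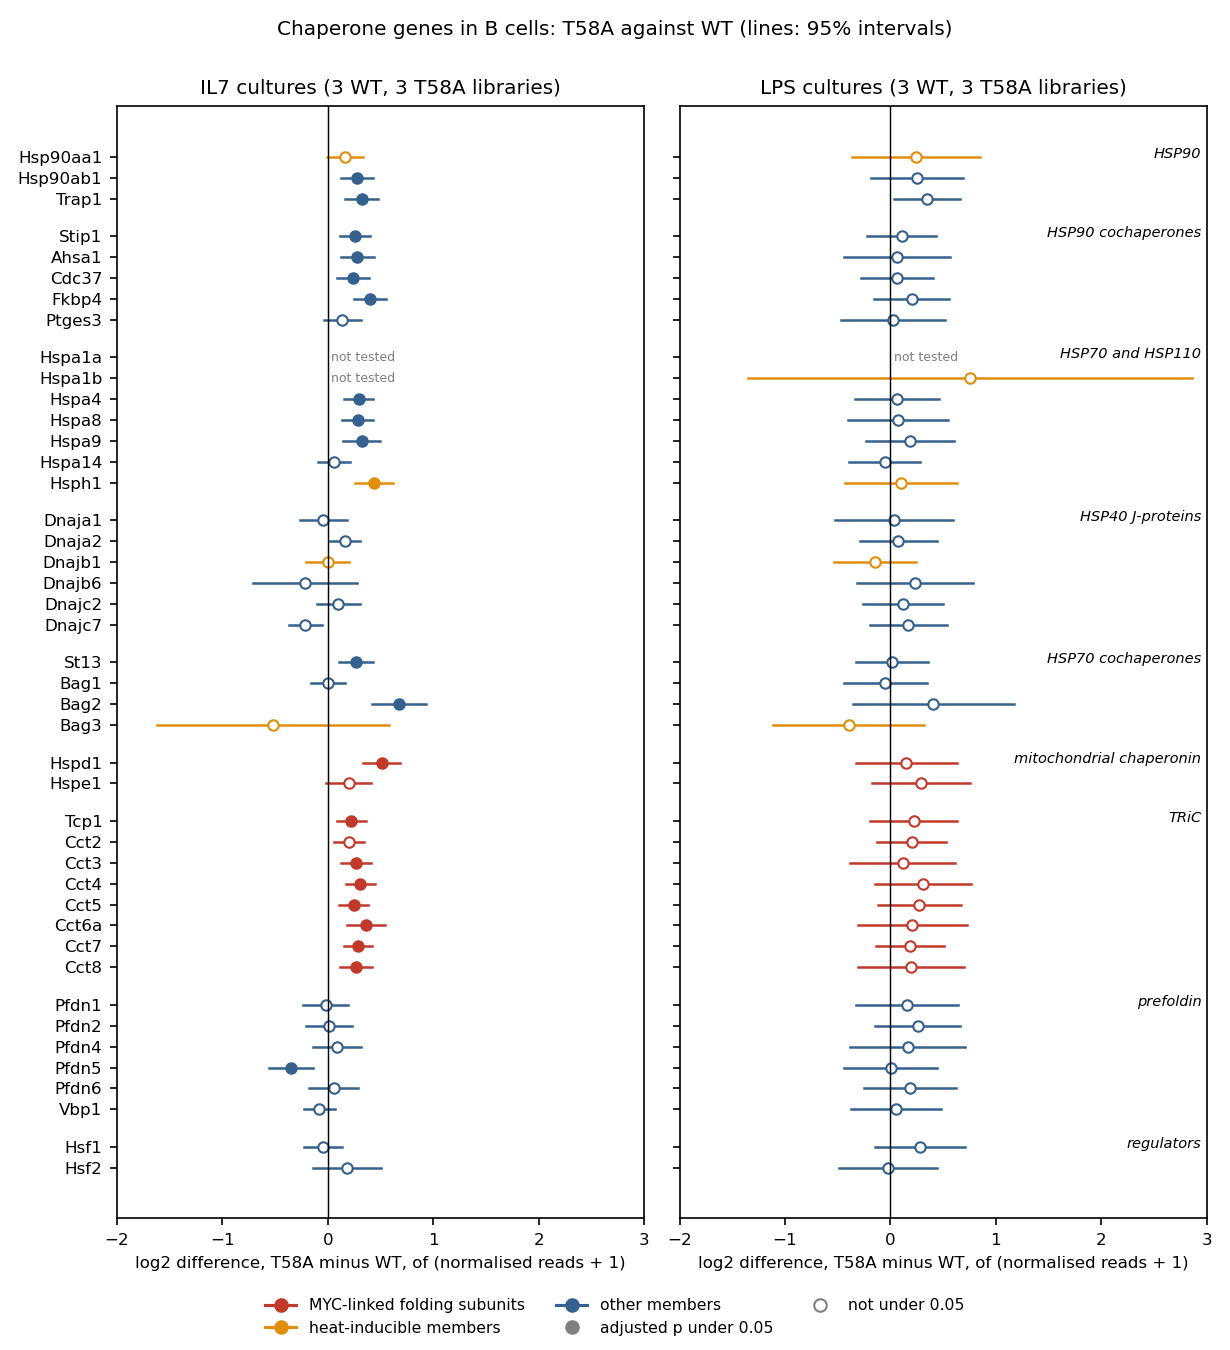
Log2 change of each member, T58A minus WT, on the log2(normalised reads + 1) scale with its 95% interval, in IL7 cultures (left, pair as a block) and LPS cultures (right, no block), grouped by role. Filled points passed an adjusted p of 0.05: 21 in IL7 cultures and 0 in LPS cultures, where the intervals are wider.

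Among the HSP90 genes 2 of 3 rose in IL7 T58A cultures, where 6.41% of all genes tested were called higher. Hsp90ab1 was at 34931, 36081 and 41796 in WT and at 41969, 44929 and 49468 in T58A. The groups did not overlap, though T58A 1 stood only just above WT 3, and the log2 change was 0.27 ± 0.07 (SE, limma adjusted p = 0.0318). Trap1, the HSP90 of mitochondria, was at 1775, 1856 and 1839 in WT and at 2355, 2389 and 2097 in T58A. All its T58A values were higher, by 0.32 ± 0.07 (SE, limma adjusted p = 0.0230). Hsp90aa1 gave 950.4, 1034 and 1240 in WT and 1160, 1166 and 1262 in T58A, which overlapped (log2 change 0.16, limma adjusted p = 0.192). Of its 50-base windows 47.5% also occur in other annotated genes, mostly in Gm12346 at 41.8%, so its counts are uncertain.

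Of the 5 HSP90 cochaperones 4 rose, against 6.41% of all genes tested: Fkbp4, Ahsa1, Stip1 and Cdc37. Fkbp4, an immunophilin that rides on HSP90 to steroid receptors (chromosome 6, 128429735 to 128438677, minus strand, GRCm38), was at 4057, 3985 and 4605 in WT. In T58A it was at 5413, 5682 and 5585, clear of WT, with a log2 change of 0.40 ± 0.07 (SE, limma adjusted p = 0.0101). Stip1, which holds HSP70 and HSP90 together, was at 2848, 2990 and 3405 in WT and at 3450, 3689 and 3897 in T58A (log2 change 0.26, limma adjusted p = 0.0306). Its lowest T58A value lay just above the highest WT value. Ahsa1, which speeds the ATPase of HSP90, changed by 0.28 and Cdc37, which brings kinases, by 0.24, at limma adjusted p-values of 0.0331 and 0.0491. Ptges3, the p23 cochaperone, gave a log2 change of 0.14 and overlapping groups.

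In the HSP70 and HSP110 family 4 of the 5 genes tested rose, against 6.41% of all genes tested. Hspa4, an HSP110-type exchange factor, was at 4389, 5032 and 5488 in WT and at 5590, 6179 and 6466 in T58A, and rose by 0.29 ± 0.06 (SE, limma adjusted p = 0.0198). Hspa8, the constitutive HSP70, had a narrow WT range of 2496, 2544 and 2516 and reached 2865, 3257 and 3096 in T58A (log2 change 0.28 ± 0.06 SE, limma adjusted p = 0.0255); 39.4% of its windows are shared with other genes. Hspa9, the mitochondrial HSP70, was at 4400, 5562 and 6850 in WT and at 6280, 6838 and 7660 in T58A. The groups overlapped and each T58A library exceeded its own partner, with a blocked change of 0.32 ± 0.08 (SE, limma adjusted p = 0.0302). Hspa14, a ribosome-bound HSP70, gave a log2 change of 0.06 with overlapping groups.

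Hsph1 was the only heat-inducible member called (chromosome 5, 149614287 to 149636376, minus strand). It was at 1761, 1667 and 1747 in WT and at 2498, 2468 and 2074 in T58A. No value overlapped, none of its windows is shared with another gene, and the log2 change was 0.44 ± 0.08 (SE, limma adjusted p = 0.0118). Its change within the pairs was 0.50, 0.57 and 0.25. The window of its promoter printed above holds both the E-box and a pair of heat shock units.

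Of the 6 HSP40 J-proteins 0 passed, where 6.41% of all genes tested were called higher and 6.31% lower. With so few genes a count of 0 is near that share. Dnajc7, which carries clients between HSP70 and HSP90, was lower in each pair, at 3385, 2925 and 2974 in WT and 2687, 2692 and 2618 in T58A. The groups did not overlap, and the log2 change was -0.21 ± 0.07 (SE, limma adjusted p = 0.0731). Dnaja2, the constitutive J-protein, lay the other way, with T58A above WT throughout (log2 change 0.16, limma adjusted p = 0.112). Dnaja1, Dnajb1, Dnajb6 and Dnajc2 overlapped between genotypes.

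HSP70 cochaperones split: Bag2 and St13 rose, as did 6.41% of all genes tested, and Bag1 and Bag3 did not pass. Bag2, an exchange factor that restrains the ubiquitin ligase CHIP (chromosome 1, 33745484 to 33757795, minus strand), was at 176, 259 and 218 in WT and at 317, 358 and 361 in T58A. Its change of 0.68 ± 0.11 (SE, limma adjusted p = 0.0101) was the highest of the called members, and it was 0.84, 0.46 and 0.73 within the pairs. St13, which steadies HSP70 bound to a client, changed by 0.27 (limma adjusted p = 0.0431). Bag1, another exchange factor, had the same mean of 1165 in both genotypes, with an SD of 83.1 in WT and 37.7 in T58A (n = 3 each).

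Hspd1, the mitochondrial HSP60 (chromosome 1, 55077835 to 55088243, minus strand), had the smallest p of all members. It was at 1806, 2243 and 2735 in WT and at 2868, 3288 and 3406 in T58A, without overlap. The log2 change was 0.51 ± 0.08 (SE, limma adjusted p = 0.00771), or 1.43 times. Its lid Hspe1, read from the same stretch of DNA, was at 507, 526 and 627 in WT and at 607, 672 and 618 in T58A. Those groups overlapped, and at 0.20 ± 0.09 (SE) the change missed the threshold (limma adjusted p = 0.197). Other annotated genes share 42.1% of the windows of Hspd1 and 22.8% of those of Hspe1, so both counts carry that uncertainty. The difference between the 2 genes was not tested.

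TRiC moved as a group: 7 of its 8 subunits rose, against 6.41% of all genes tested. The remaining subunit, Cct2, gave a log2 change of 0.20 (limma adjusted p = 0.0624). All 8 were higher in T58A in all 3 pairs, as were 25.9% of all genes tested. Cct4 was at 4114, 4454 and 4491 in WT and at 5265, 5503 and 5377 in T58A, a change of 0.31 ± 0.06 (SE, limma adjusted p = 0.0167). Cct7 was at 3984, 4236 and 4640 in WT and at 4821, 5211 and 5690 in T58A (0.29 ± 0.06 SE, limma adjusted p = 0.0185). Both stood clear of WT. Cct6a was at 4717, 5387 and 6944 in WT and at 6826, 7054 and 7816 in T58A, with an overlap at WT 3, and changed by 0.36 ± 0.08 (SE, limma adjusted p = 0.0217). The 8 subunits form 1 ring in fixed proportion, and their log2 changes lay between 0.20 and 0.36.

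Of the 6 subunits of prefoldin, the partner of TRiC, 0 rose and Pfdn5 fell. Over all genes tested 6.41% were called higher and 6.31% lower. Pfdn5, also known as MM-1, a protein that binds MYC, was at 717, 534 and 576 in WT and at 506, 476 and 441 in T58A. No T58A value reached a WT value, and the change was -0.35 ± 0.09 (SE, limma adjusted p = 0.0421). In the authors' deposited values and in DESeq2 with the block 0 members were called lower. Pfdn1, Pfdn2, Pfdn4, Pfdn6 and Vbp1 gave changes from -0.08 to 0.09 with overlapping groups. The difference between the 2 complexes was not tested. Of the regulators, Hsf1 gave 829.8, 669 and 737 in WT and 778, 705 and 681 in T58A, and Hsf2 gave 214, 273 and 235 in WT and 323, 269.7 and 231 in T58A. Both overlapped, with log2 changes of -0.04 and 0.18.

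Set side by side, 8 of 10 MYC-linked subunits rose in IL7 cultures, with a median log2 change of 0.27. Of the 4 heat-inducible members tested 1 rose, with a median of 0.08. The share called over all genes tested was 6.41% higher and 6.31% lower. The difference between these sets was not tested. The other 27 members had 11 that rose, 1 that fell and a median of 0.14. Within pairs 1, 2 and 3 the MYC-linked median was 0.31, 0.30 and 0.19, with 10, 10 and 9 of 10 genes higher in T58A. Pair 3, of 1 sex, thus gave the lowest of the 3. The heat-inducible median over the 4 genes tested was 0.03, 0.37 and 0.09, and without pair 2 it was -0.04, over 5 genes. All genes tested had medians of -0.01, 0.00 and -0.01 in the pairs.

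The heat-inducible members did not share a direction. Dnajb1, the inducible partner of HSP70, was at 969, 793 and 709 in WT and at 827, 839 and 785 in T58A, with a log2 change of 0.00. Bag3, the exchange factor of stress-induced autophagy, was at 16.7, 9.06 and 13.2 in WT and at 8.61, 14.5 and 4.76 in T58A, a change of -0.52 ± 0.48 (SE, limma adjusted p = 0.505). Hspa1b was at 17.6, 6.34 and 8.81 in WT and at 7.53, 6.20 and 11.4 in T58A. Hspa1a was at 6.50, 2.72 and 0 in WT and at 3.23, 5.17 and 0.951 in T58A, at or near the level of 3 reads. Of the windows of Hspa1a 58.8% also occur in Hspa1b, and of those of Hspa1b 62.3% in Hspa1a, so their reads cannot be assigned with certainty. WT 1 was highest for 4 of the 6 heat-inducible genes: Hspa1a, Hspa1b and Bag3, all with few reads, and Dnajb1. WT 1 was lowest for 9 of the 10 MYC-linked ones. Of all 43 members WT 1 was highest for 8 and lowest for 21. The share over all genes was not counted, so these counts are not read as a trait of either set.

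**Figure D3:**
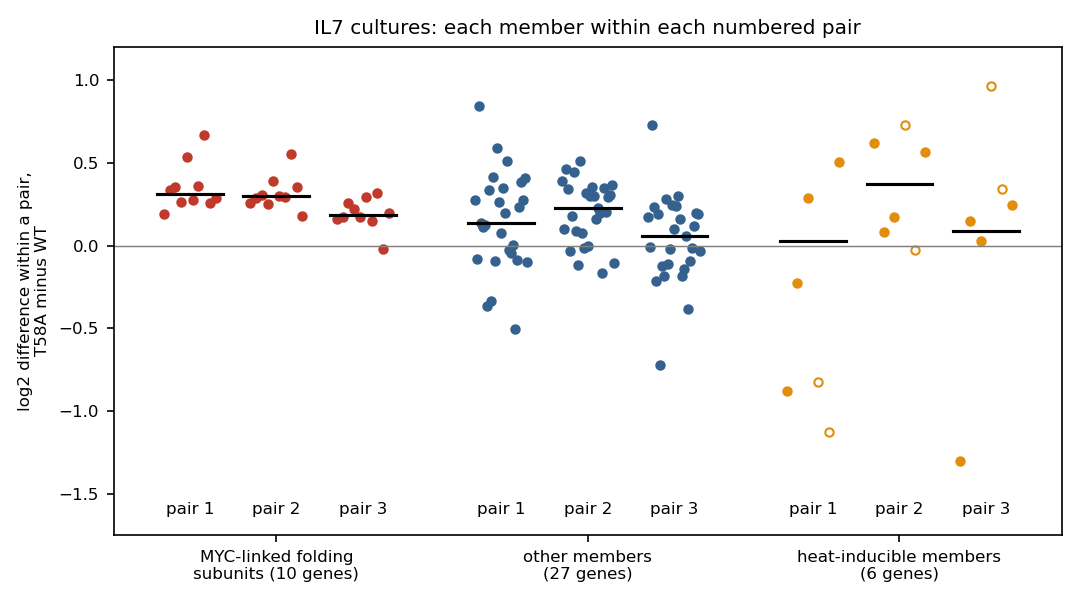
Log2 difference of each member within each numbered IL7 pair, T58A minus WT, on the log2(normalised reads + 1) scale. Bars are medians over the genes tested and open circles are Hspa1a and Hspa1b, not tested. The MYC-linked subunits lie above 0 apart from 1 in pair 3. The heat-inducible members lie on both sides of 0, in pair 2 only by Hspa1b at -0.03.

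Marker sums were read beside these changes in IL7 cultures, and not all of them separated the genotypes. Immediate early genes, which handling of cells can raise (Fos, Fosb, Jun, Junb, Egr1, Atf3, Ier2), summed to 2012 to 2707 in WT and 1319 to 1822 in T58A. Against that direction, Fos was higher in T58A in pairs 1 and 2, Fosb in pairs 1 and 3 and Junb in pair 3. The 10 myeloid markers summed to 1025, 592 and 1844 in WT and to 676, 877 and 438 in T58A, with Elane at 15.4 or below. These sums overlapped, and T58A was higher in pair 2. The 7 T and NK markers summed to 45.1 to 71.5 in WT and 20.9 to 39.3 in T58A, with Cd8a at 3.10 or below. Early B cell markers summed to 15946, 17009 and 21821 in WT and to 15614, 15066 and 17833 in T58A, lower in each pair with overlapping groups. Of these Rag1, which cuts antigen receptor genes, was at 3045, 2294 and 2000 in WT and at 1940, 1255 and 1126 in T58A. Cd79a, a signalling chain of the B cell receptor, was at 9325, 6246 and 5929 in WT and at 5548, 4783 and 5010 in T58A. Neither overlapped between genotypes, and both were chosen after their values were seen. Of the B cell and early B cell markers, Pax5 was higher in T58A in pairs 2 and 3, and Dntt and Igll1 in pair 1. The others were lower in T58A in each pair. Myc transcript rose by 0.46 ± 0.07 (SE, limma adjusted p = 0.00791). The part of these transcripts and of sex in the chaperone changes was not tested.

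In LPS cultures no member passed: limma without a block called 0 of 42 members tested and 0 of 11291 genes. The members' median log2 change was 0.16, against 0.01 over all genes tested, and 37 of the 42 lay above 0, or 88.1% against 52.4% of all genes. At an unadjusted p under 0.05 there was 1 member, Trap1, against 2.52% of all genes. T58A stood above WT in every library for 4 members, Trap1, Cct2, Cct5 and Cct7, and for 3.10% of all genes tested. Pairing the first T58A library with WT 1 as a block gave 0 members and 0.0354% of all genes, with 8 members and 16.7% of all genes at an unadjusted p under 0.05. With that block edgeR and DESeq2 also called 0 members, and they called 0.345% and 1.94% of all genes. The authors' deposited table held 0 members with an adjusted p under 0.05 in LPS cultures, where 4.20% of its genes had one.

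Trap1 was at 750.0, 773 and 723 in LPS WT and at 1030, 958 and 871 in LPS T58A, without overlap. Its log2 change of 0.34 had a 95% interval of 0.03 to 0.66. Cct5 was at 3769, 3428 and 3635 in WT and at 5375, 3980 and 3888 in T58A (log2 change 0.27, interval -0.12 to 0.67). The first T58A library lay far above the other two. Cct4 was at 2893, 2950 and 2408 in WT and at 4175, 3640 and 2572 in T58A, and Cct2 at 3613, 3715 and 3764 against 4536, 4153 and 4097. Pfdn2 was at 223, 213 and 229 in WT and at 319, 258 and 226 in T58A. Hsf1 was at 256, 348 and 271 in WT and at 312, 419 and 329.5 in T58A, a log2 change of 0.28 whose interval ran from -0.15 to 0.70.

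The first LPS T58A library carried much of this. It was the highest of the 6 LPS libraries for 32 of the 43 members and for 9 of the 10 MYC-linked subunits. How often it was the highest over all genes was not counted, so these counts may not be particular to chaperones. TRiC took 0.458% of the reads of the first T58A library, against 0.354% and 0.350% in the other T58A libraries and 0.314% to 0.343% in WT. The MYC-linked median log2 change was 0.21 with all libraries and 0.05 without that one. For the heat-inducible members the median was 0.10 with all libraries, -0.19 without that one and -0.05 without WT 2.

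That library also stood apart in the inducible HSP70 copies. Hspa1a was at 45.6 there and at 3.46 or below in the other 5 LPS libraries. Hspa1b was at 49.2 there and at 12.4 or below elsewhere. Hsp90aa1 reached 770.5 against 332 to 493 in the other libraries, and Hsph1 878 against 484 to 719. Other heat-inducible members did not follow: Dnajb1 was at 428, inside the WT range of 374 to 484, and Bag3 was at 20.4, the lowest of the 6 libraries. Hspe1 at 702 and Tcp1 at 5760 were highest there too, with at most 457 and 4156 in the rest.

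**Figure D4:**
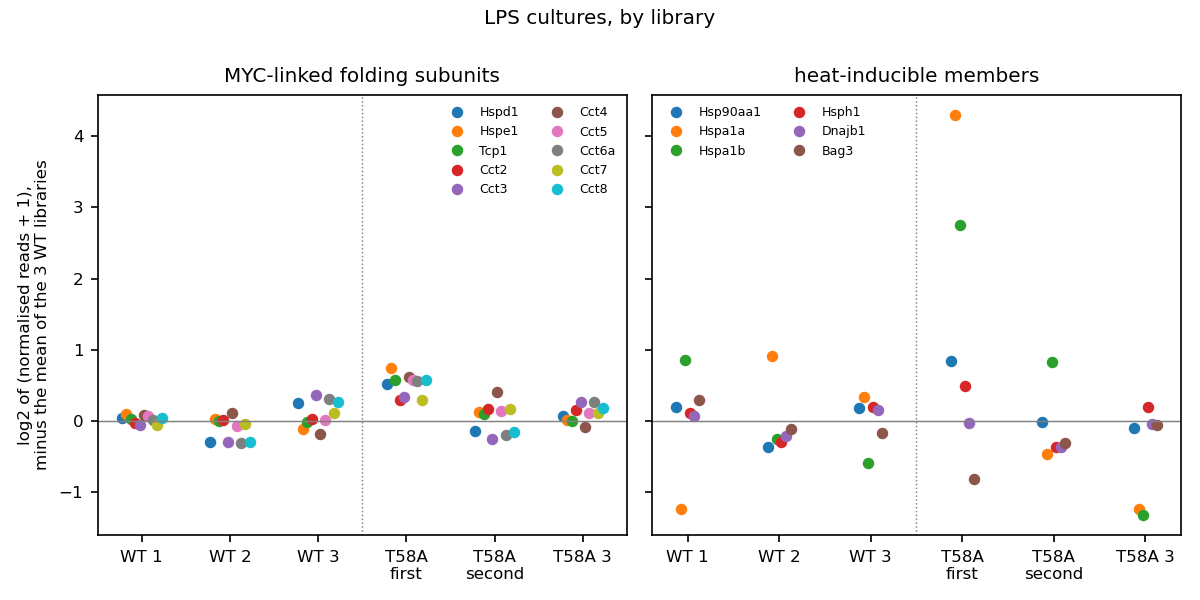
Each LPS library's log2(normalised reads + 1) minus the mean of the 3 WT libraries, for the MYC-linked subunits (left) and the heat-inducible members (right), 1 point per gene. Most points of the first T58A library lie above those of the other libraries, with Hspa1a and Hspa1b farthest from 0 and Bag3 lowest.

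All 5 plasmablast markers were detected in LPS cultures and summed to 83441, 31938 and 84330 in WT and to 34508, 19399 and 57062 in T58A. The groups overlapped, and with the first T58A library beside WT 1 and the second beside WT 2 each T58A sum was lower than its partner. The headers do not give this order, and with both exchanged the first T58A sum lay above that of WT 2. Prdm1, the switch to antibody secretion, was at 2592, 2196 and 2810 in WT and at 1385, 1469 and 2239 in T58A. Igj, the joining chain of secreted antibody, was at 63378, 17254 and 59432 in WT and at 23218, 9409 and 37355 in T58A. Both genes overlapped between the groups and were lower in T58A in each pair of the first order. In the exchanged order Prdm1 was still lower in each pair, and Igj was higher in the first T58A library than in WT 2. Of the other markers, Sdc1 did not follow. It was higher in T58A in pair 3, and in the exchanged order also in the first T58A library than in WT 2. Xbp1 and Irf4 were lower in T58A in each pair of both orders. Igj had the most reads of the 5 markers in each LPS library, so the sums weigh it most. The part of these markers in the LPS values was not tested.

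The T58A effect was then compared between cultures in 1 fit over the 12 libraries. No member of 41 passed the test of the difference, and neither did any of 10767 genes (limma, no block), with 1 member and 4.45% of genes at an unadjusted p under 0.05. That member was Dnajc7, lower in T58A in IL7 cultures and with a log2 change of 0.17 in LPS cultures. In LPS cultures it was at 2794, 3413 and 2733 in WT and at 3486, 3583 and 2976 in T58A. The difference, LPS minus IL7, was 0.38 ± 0.18 (SE) with a 95% interval of 0.00 to 0.76. St13, Hsf1 and Pfdn5 came next, at -0.25, 0.32 and 0.36, with intervals across 0. For Hspd1 the difference was -0.36 with an interval of -0.96 to 0.23, and for Cct4 it was 0.00 with an interval of -0.48 to 0.49, so these data bound the difference only loosely.

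A further 87 protein folding genes outside the list, such as other J-proteins, tubulin cofactors and mitochondrial proteases, were read in the same fits. In IL7 cultures 9 of the 80 tested rose and 1 fell, against 6.41% of all genes called higher and 6.31% called lower. Their median log2 change was 0.05, and limma without the block passed 0 of them and 0 of all genes. Clpb, a mitochondrial disaggregase, was at 328, 331 and 331 in WT and at 512, 452 and 466 in T58A (0.53 ± 0.09 SE, limma adjusted p = 0.0115). Ruvbl1, an ATPase that assembles complexes with the R2TP cochaperone, was at 290.5, 301 and 292 in WT and at 386, 352 and 422 in T58A (0.39 ± 0.10 SE, limma adjusted p = 0.0404). Lonp1, a mitochondrial protease and chaperone, was at 1476, 1506 and 1684 in WT and at 1928, 2046 and 1964 in T58A (0.35 ± 0.07 SE, limma adjusted p = 0.0180). All T58A values of these 3 genes stood above WT. Hspa2, an HSP70 best known from testis, fell by 0.44 ± 0.11 (SE, limma adjusted p = 0.0399), from 380.5, 282 and 140 in WT to 259, 203 and 113 in T58A, lower within each pair though the groups overlapped.

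In LPS cultures 0 of 82 such genes passed limma. At an unadjusted p under 0.05 there were 3, Hspa13, Dnajb9 and Ppia, against 2.52% of all genes. Hspa13, an HSP70 of the secretory pathway, was at 1602, 859 and 1559 in WT and at 750.1, 551 and 1066 in T58A. Dnajb9, a J-protein of the endoplasmic reticulum, was at 1104, 635 and 938 in WT and at 560.4, 458 and 723 in T58A. With the block that puts the first T58A library with WT 1, DESeq2 called 4 of these genes lower, Hspa13, Dnajb9, Dnajc3 and Dnajc10, where it called 1.94% of all genes in either direction. All 4 act in the endoplasmic reticulum, and the part of the plasmablast markers in their values was not tested. Ppia, a cyclophilin, was at 56.3, 25.9 and 35.4 in WT and at 127, 261 and 33.2 in T58A, which overlapped.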

How the data were processed

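Reads were demultiplexed with bcl2fastq 1.8.4, aligned with TopHat2 2.1.0 to mm10 and counted with HTSeq 0.6.1, per the submitters' processing notes, which also name DESeq2; the annotation and strand setting are not given in the sources used here. Libraries were made with the TruSeq RNA v2 kit, per the labels' protocols. The deposited signal values are read counts that the authors divided by a size factor per library: 100% came out as whole reads within 0.001 read. The deposited log2 fold changes and p-values are the authors' own and enter only where named. Every per-sample column was used.

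Genotype was tested in R 4.3.3 with limma 3.58.1 on log2(value + 1), for genes passing filterByExpr (at least 10 counts, total 15), with Benjamini-Hochberg adjustment. The IL7 fit had the pair as a block: deviations from the group means correlated by 0.41, 0.15 and 0.40 between same-numbered libraries. The LPS fit had none, as 2 columns carry no usable number. Such deviations correlated by 0.34, 0.66 and 0.54 with the first T58A library beside WT 1, and by -0.22, -0.23 and 0.54 with the 2 exchanged; a fit with each order as a block was an alternative. Fits were tested on simulated counts. Alternatives used edgeR 4.0.16, DESeq2 1.42.0, limma-voom, other scalings, filters and pseudocounts, and left out libraries. Positions and exon lengths come from GENCODE M21, promoters from RefSeq (GRCm38.p6).

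Members, lists and tests were chosen with earlier results of these data known. Genes with values in each library are the heat-inducible members, the 12 called in IL7 cultures with the smallest p, those with the smallest p of each role, the 6 smallest in LPS cultures and the 4 smallest for the difference between cultures. Of the 87 other folding genes, the 3 largest called changes in each direction or the 3 smallest p were named; Dnajc3 and Dnajc10 were named after their values were seen. Intervals for members cover the spread between libraries as the model estimates it.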

Additional observations from a re-analysis of the deposited data

How the results depend on the processing

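The IL7 count of 21 called members depended on the pairing. It was 0 with no replicate block in limma, 0 with no replicate block in edgeR and 4 in DESeq2, and 0 where the replicate block was joined by a term for sex, a fit that rests on pair 3. Leaving out pairs gave 3 to 18, the lowest without pair 2. Other scalings, filters, pseudocounts and tools with the block gave 15 to 21, all among the main 21. For the other folding genes the count of 10 became 0 with no replicate block in limma and edgeR, 3 in DESeq2, 0 with the term for sex, 1 to 7 without a pair, 6 with total counts and 5 with DESeq2 and the block. In LPS cultures and for the difference between cultures 0 members passed under every alternative run, replicate blocks included; of the other folding genes 1 was called by edgeR and 4 by DESeq2 with the first T58A library paired with WT 1. The MYC-linked median change in IL7 cultures moved from 0.27 to 0.19 with the term for sex and ran from 0.23 to 0.31 without a pair. In LPS cultures it ran from 0.05 to 0.30 without a library, and the heat-inducible median from -0.19 to 0.34, or 0.17 over 6 genes with no filter; in IL7 cultures that median was -0.04 to 0.11 without a pair and 0.16 over 3 genes with a mean of at least 50 normalised reads. The cause of these shifts was not tested. Alternatives added after the data were seen are the block or its absence combined with edgeR or DESeq2, for the medians all but TMM scaling, total counts, a pseudocount of 5 and left-out libraries, and for the other folding genes all but the IL7 fit with no block and edgeR. Depth limits Hspa1a, Hspa1b and Bag3, at 0 to 7, 6 to 19 and 5 to 18 reads in the IL7 libraries.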
